A study of Homo sapiens with 6 samples.

Results

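The genes described here are the small nucleolar RNA (snoRNA) host long non-coding RNAs: the numbered SNHG genes and GAS5, the growth arrest-specific transcript. They were taken by name, as every gene of the deposited table called SNHG with a number, or GAS5. Of 61280 gene rows 29 met the rule, each name once. The set was chosen with earlier results of these data known. A snoRNA host gene is in general transcribed and spliced, with the small RNAs in its introns. They are released when the introns are trimmed, while the exons are joined into the host RNA. The values here are per gene and can include unspliced transcripts. The longest annotated transcripts of SNHG9 and SNHG12 have 1 exon. Box C/D snoRNAs guide 2′-O-methylation and box H/ACA snoRNAs guide pseudouridylation of ribosomal RNA, and the related scaRNAs act on spliceosomal RNAs in Cajal bodies. Many host RNAs begin with a run of pyrimidines like that of ribosomal protein mRNAs, have short open reading frames, and are known substrates of nonsense-mediated decay, a pathway that depends on translation.

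RNA was sequenced from MDA-MB-231, a human triple-negative breast cancer cell line grown in serum-containing medium. Cells that were irradiated with 20 Gy of X-rays and kept in culture for 24 h (3 libraries, called irradiated) were compared with cells that received no irradiation (3 libraries, called control). For the controls no time in culture is stated, and an effect of culture time cannot be told apart from that of irradiation. The labels number the replicates and do not say whether they were separate cultures, so p-values measure the spread between these libraries, which may be technical.

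Values are TPM, which give each gene's share of the library after division by transcript length, so levels can be compared between genes but the read depth is unknown. A gene that falls in TPM has lost share, and less RNA per cell and fewer expressing cells cannot be told apart in bulk RNA. Between 14248 and 14889 genes reached 1 TPM in each library. Irradiated replicates 1 and 2 lay at opposite ends of the second principal component (-23.9 and 25.4, against -0.363 to 4.32 for the controls). Of the genes that mark the line, VIM ranged from 1583 to 2011 TPM and CD44 from 186 to 268 TPM, while ESR1 reached at most 0.39 TPM and PGR was listed at 0 in all 6 libraries. ERBB2, the gene of the HER2 receptor, was at 20.9 to 27.9 TPM, and the epithelial gene EPCAM at 8.32 to 11.3 TPM. Of the leukocyte genes named here, CD3E reached at most 0.05 TPM and LYZ at most 0.11 TPM, but PTPRC was at 40.4 TPM in irradiated replicate 1 and at most 0.45 TPM elsewhere; values without that library are given below.

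The first bases of a host RNA are the part that a pyrimidine tract would occupy, so the 60 bases centred on the annotated start are shown for the 8 host genes that passed the test below and for SNHG5, the most abundant one. They run 5′ to 3′ on the gene's strand, and the start base is the first after 30 upstream bases. Capitals mark an unbroken run of at least 5 C or T bases that covers the start base; the sequences are from RefSeq on GRCh38.p14.
SNHG19: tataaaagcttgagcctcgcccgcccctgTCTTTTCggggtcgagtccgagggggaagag
SNHG7: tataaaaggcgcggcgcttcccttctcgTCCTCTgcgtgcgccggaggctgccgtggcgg
SNHG32: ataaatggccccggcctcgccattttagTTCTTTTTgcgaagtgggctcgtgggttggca
SNHG1: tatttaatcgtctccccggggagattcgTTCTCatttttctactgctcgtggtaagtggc
SNHG5: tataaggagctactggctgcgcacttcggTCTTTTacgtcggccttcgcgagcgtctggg
SNHG3: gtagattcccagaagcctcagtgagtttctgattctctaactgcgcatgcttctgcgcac
SNHG17: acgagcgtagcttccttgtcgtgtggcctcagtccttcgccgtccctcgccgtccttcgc
SNHG29: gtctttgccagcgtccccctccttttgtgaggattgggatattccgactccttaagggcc
SNHG11: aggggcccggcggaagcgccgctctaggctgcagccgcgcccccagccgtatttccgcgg

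These windows lie at chr16:2155329-2155388 (minus strand) for SNHG19, chr9:136728155-136728214 (minus) for SNHG7, chr6:31834886-31834945 (plus) for SNHG32, chr11:62855856-62855915 (minus) for SNHG1 and chr6:85678704-85678763 (minus) for SNHG5. Those of SNHG3, SNHG17, SNHG29 and SNHG11 lie at chr1:28505913-28505972 (plus), chr20:38435299-38435358 (minus), chr17:16438957-16439016 (plus) and chr20:38446624-38446683 (plus). RefSeq's table had a start region for 25 of the 29 genes (not for SNHG6, SNHG9, SNHG15 and SNHG25), and 10 of these 25 (40.0%) had such a run, against 9.60% of all 35116 regions in the table. The holders were SNHG1, SNHG4, SNHG5, SNHG7, SNHG8, SNHG12, SNHG18, SNHG19, SNHG26 and SNHG32. A match describes letters at an annotated start, which may differ from the start used in these cells.

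The small RNAs inside the hosts have their own signature letters, and 6 are shown because their hosts carry the results. In the box C/D snoRNAs the capitals mark the C box (TGATGA) and the last D box (CTGA); in the box H/ACA snoRNAs they mark the ACA box near the 3′ end. The sequences are from GENCODE 29 on GRCh38.
SNORD60: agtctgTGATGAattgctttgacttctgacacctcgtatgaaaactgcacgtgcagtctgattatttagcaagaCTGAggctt
SNORD48: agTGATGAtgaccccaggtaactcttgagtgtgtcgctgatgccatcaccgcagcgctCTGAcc
SNORA73A: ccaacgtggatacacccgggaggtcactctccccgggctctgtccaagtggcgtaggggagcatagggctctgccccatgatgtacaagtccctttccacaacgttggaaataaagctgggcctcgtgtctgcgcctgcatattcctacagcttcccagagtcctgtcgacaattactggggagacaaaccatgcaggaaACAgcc
SNORA71A: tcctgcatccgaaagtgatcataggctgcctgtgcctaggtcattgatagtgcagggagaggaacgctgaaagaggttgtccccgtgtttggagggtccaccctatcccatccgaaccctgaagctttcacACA
SNORA71E: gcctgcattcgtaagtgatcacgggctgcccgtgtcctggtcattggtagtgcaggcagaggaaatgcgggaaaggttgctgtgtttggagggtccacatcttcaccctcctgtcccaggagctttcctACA
SNORA60: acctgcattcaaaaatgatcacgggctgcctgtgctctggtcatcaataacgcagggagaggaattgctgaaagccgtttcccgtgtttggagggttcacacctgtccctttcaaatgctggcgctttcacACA

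SNORD60 is encoded in SNHG19 (chr16:2155023-2155105, minus), SNORD48 in SNHG32 (chr6:31835263-31835326, plus), SNORA73A in SNHG3 (chr1:28507366-28507571, plus) and SNORA71A in SNHG17 (chr20:38427309-38427442, minus). SNORA71E (chr20:38448084-38448215, plus) and SNORA60 (chr20:38449370-38449503, plus) are encoded in SNHG11. SNORA71A was 77.5% identical to SNORA71E and 79.6% identical to SNORA60 over a global alignment, against 83.1% to SNORA71C and 83.1% to SNORA71D, which lie with it in SNHG17. Likeness did not follow the host throughout. SNORA71D and SNORA60, of different hosts, were 82.1% identical, and SNORA71E and SNORA60, both in SNHG11, 73.4%. The SNORA71 family is thus shared between SNHG17 and SNHG11, host genes on opposite strands with 11224 bases between them.

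The host RNAs spanned several orders of magnitude. SNHG5 was the most abundant, with a control mean of 609 ± 35.2 TPM (SD, n = 3, as for all means below), followed by SNHG29 at 546 ± 26.6 TPM, GAS5 at 398 ± 23.2 TPM and SNHG6 at 332 ± 5.34 TPM. The control values of each of these 4 lay wholly above those of the next, down to SNHG8 (mean 189 TPM). Next came SNHG1 (160 ± 5.85 TPM) and SNHG32 (151 ± 11.5 TPM), whose control values overlapped, and SNHG16 (109 ± 1.66 TPM). SNHG15, SNHG3 and SNHG19 (65.5, 65.1 and 63.5 TPM) could not be ranked against each other, because their control values overlapped, and neither could SNHG7 and SNHG17 (47.1 and 46.7 TPM). SNHG12, SNHG9, SNHG25 and SNHG4 had control means between 14.4 and 42.0 TPM, and SNHG30, SNHG11, SNHG21, SNHG10, SNHG26 and SNHG20 between 5.84 and 9.70 TPM. SNHG22 (mean 1.92 TPM) and SNHG14 (0.91 to 1.44 TPM) came last among the tested hosts; SNHG14 carries long arrays of box C/D snoRNAs in the imprinted Prader-Willi region.

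**Figure D1:**
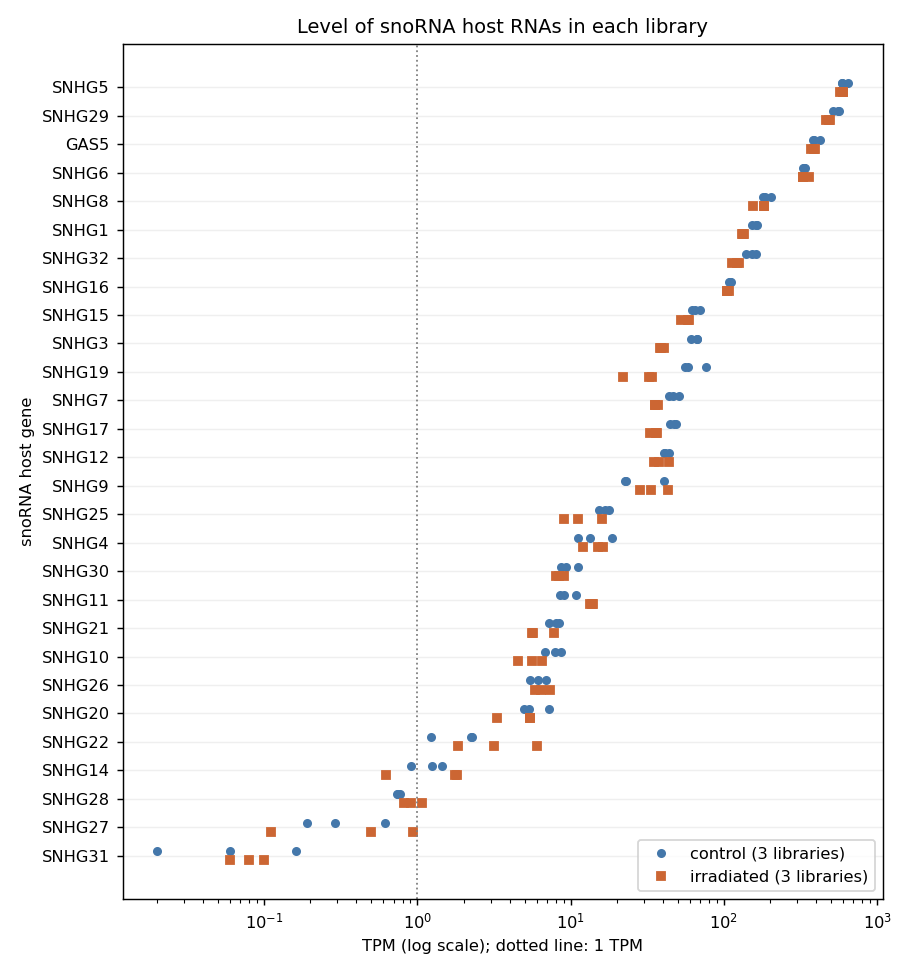
TPM on a log scale (x axis) of each snoRNA host RNA (y axis, ordered by control mean) in the 3 control libraries (circles) and the 3 irradiated libraries (squares); SNHG18, listed at 0 in all 6, is left out. SNHG19 and SNHG3 show the widest gaps between the groups, whereas GAS5, SNHG5 and SNHG6 overlap.

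Together the 29 host RNAs held 0.284%, 0.290% and 0.307% of the TPM in control replicates 1, 2 and 3, and 0.257%, 0.276% and 0.269% in irradiated replicates 1, 2 and 3. The irradiated sums were all below the control sums (2675 ± 95.8 against 2936 ± 118 TPM). SNHG5, SNHG29, GAS5 and SNHG6 made up 63.9% to 64.6% of the sum in the controls and 66.8% to 67.4% in the irradiated libraries. The 7 hosts called lower below, which include SNHG29, had summed means of 1079 ± 50.2 TPM in the controls and 874 ± 26.4 TPM after irradiation, a difference of -205 TPM out of -261 TPM for all 29; they were chosen for being lower, so this is a description.

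Of the 29 genes, 25 reached 1 TPM in at least 3 of the 6 libraries and were tested together with all other such genes (limma on log2(TPM + 1), Benjamini-Hochberg adjustment over 14621 genes, threshold 0.05). After irradiation 7 of the 25 fell, namely SNHG19, SNHG3, SNHG17, SNHG7, SNHG32, SNHG1 and SNHG29, and SNHG11 rose. Over all tested genes 10.6% were called, 4.07% as lower and 6.53% as higher (955 higher and 595 lower, or 778 and 852 after median-ratio scaling). The hosts' share of lower calls (28.0%) was thus above that background, and their share of higher calls (1 of 25) was not. The 3 irradiated values lay below all 3 control values in 9 of the 25 (background 14.5%) and above them in 1 (background 20.4%). The median log2 change of the 25 was -0.17, against 0.03 over all tested genes, and 18 of the 25 estimates were below 0. The hosts' median was -0.0853 without control replicate 3 and -0.10 without irradiated replicate 1, against 0.03 and 0.01 over all genes in the same fits.

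The size of the loss differed between hosts, as the plot of single changes shows. Log2 changes of the lower hosts ran from -1.10 for SNHG19 to -0.18 for SNHG29. Leaving out control replicate 2 left 2 lower calls (SNHG1 and SNHG3), and leaving out irradiated replicate 3 left 3. Without irradiated replicate 1, the library with PTPRC reads, 5 lower calls were left and the SNHG11 call was lost (adjusted p = 0.0687).

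**Figure D2:**
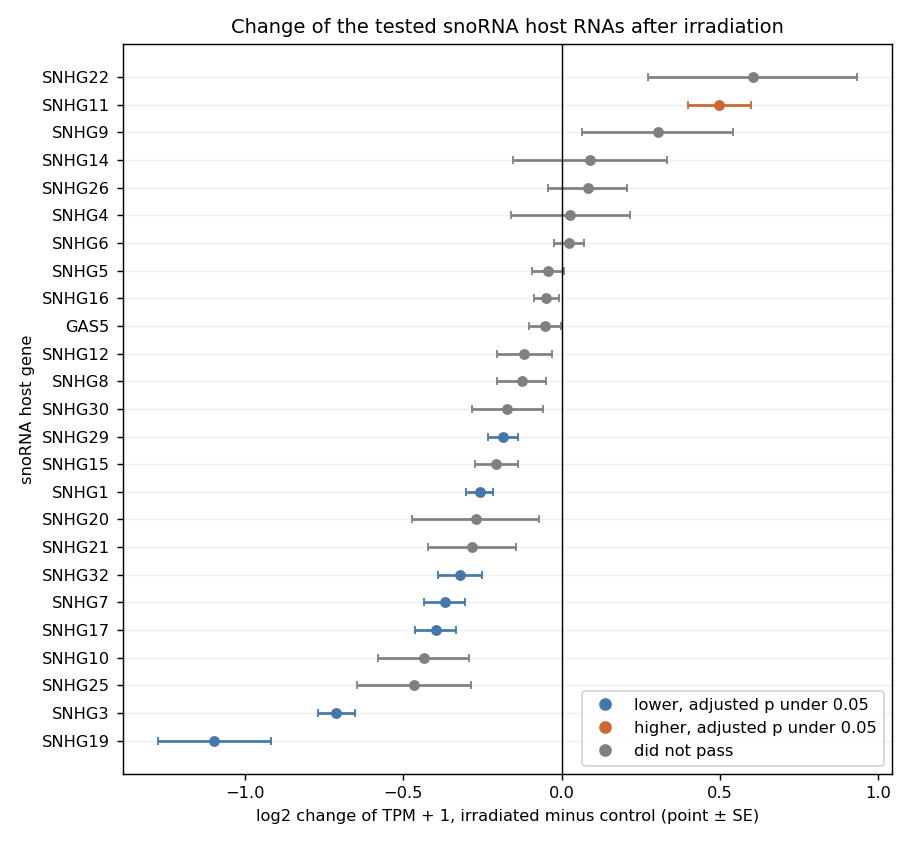
Log2 change of TPM + 1, irradiated minus control (x axis; point ± SE), of the 25 tested host RNAs (y axis), coloured by whether they passed an adjusted p of 0.05. The 7 lower calls run from -1.10 (SNHG19) to -0.18 (SNHG29), and SNHG11 is the 1 higher call at 0.50.

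Among the hosts of box C/D snoRNAs, SNHG19 had the largest fall. SNHG19 (ENSG00000260260; chromosome 16, 2154797 to 2155358, a 2-exon lincRNA with a longest transcript of 342 bases) carries SNORD60. It was at 56.1, 58.1 and 76.3 TPM in the control libraries and 22.0, 33.8 and 32.5 TPM in the irradiated ones. The groups did not overlap, and irradiated replicate 1 was the lowest. The mean went from 63.5 ± 11.2 to 29.4 ± 6.47 TPM, a log2 change of -1.10 ± 0.18 SE (adjusted p = 0.0149). With control replicate 2 left out the adjusted p was 0.0544, and with no filter on low genes it was 0.0604, so the call was lost in both. TRAF7, a ubiquitin ligase gene that starts head to head with SNHG19 within 1000 bases, was at 39.8 ± 0.266 and 43.9 ± 1.62 TPM and did not pass (adjusted p = 0.134).

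SNHG32 (ENSG00000204387; chromosome 6, 31834608 to 31839766), formerly C6orf48 and annotated as protein-coding in GENCODE 29, carries SNORD48 and SNORD52. Its values were 138, 152 and 161 TPM in the controls and 113, 126 and 122 TPM after irradiation. All irradiated values were below all control values. The log2 change was -0.32 ± 0.07 SE (adjusted p = 0.0306). The call was lost when control replicate 2 or 3 or irradiated replicate 1 or 3 was left out (adjusted p between 0.0780 and 0.109). In all it was lost in 6 of 16 alternatives. AL671762.1, which overlaps SNHG32 on the same strand, was at 7.52 ± 4.35 and 4.89 ± 1.35 TPM and did not pass (adjusted p = 0.543). Its part in the SNHG32 value was not tested.

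SNHG1 (ENSG00000255717; chromosome 11, 62851988 to 62855914) holds a cluster of box C/D snoRNAs that includes SNORD25 to SNORD28 and SNORD30. It was at 162, 153 and 165 TPM in the controls and at 134, 135 and 132 TPM after irradiation. The irradiated libraries had a coefficient of variation of 1.18%, the smallest among the 25 tested hosts. The log2 change was -0.26 ± 0.04 SE (adjusted p = 0.0150). Leaving out control replicate 1 (adjusted p = 0.0623) or irradiated replicate 3 (0.0561) ended the call, which was lost in 4 of 16 alternatives in all. SLC3A2, the heavy chain of amino acid transporters, starts within 1000 bases on the other strand and was at 152 ± 9.97 and 151 ± 5.91 TPM, with no call (log2 change -0.01 ± 0.06 SE, adjusted p = 0.927).

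SNHG29 (ENSG00000175061; chromosome 17, 16438822 to 16478678), host of SNORD49A, SNORD49B and SNORD65, was at 516, 564 and 559 TPM in the controls and 464, 491 and 487 TPM after irradiation. The groups were separate, but the change was small, with a log2 change of -0.18 ± 0.05 SE (adjusted p = 0.0492). It lost its call in all 6 fits that left out 1 library and in 12 of 16 alternatives in all, after median-ratio scaling among them.

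The other box C/D hosts did not pass. SNHG5, which carries SNORD50B, was at 586, 592 and 650 TPM in the controls and 569, 603 and 600.3 TPM after irradiation. GAS5 (ENSG00000234741; chromosome 1, 173863900 to 173868882), a multi-snoRNA host whose own RNA is known to bind the glucocorticoid receptor, was at 388, 382 and 425 TPM in the controls and 371, 395 and 386 TPM after irradiation. SNHG6, which carries SNORD87, was at 336, 335 and 326 TPM against 328, 359 and 326 TPM. The groups overlapped in each of these 3, although they are 3 of the 4 most abundant hosts. Their log2 changes were -0.04 ± 0.05 SE (adjusted p = 0.616) for SNHG5, -0.05 ± 0.05 SE (adjusted p = 0.551) for GAS5 and 0.02 ± 0.05 SE (adjusted p = 0.788) for SNHG6. GAS5 came out at 0.0020 after quantile normalization and SNHG6 at -0.0080 after median-ratio scaling, so neither has a settled sign. SNHG16, host of SNORD1A, SNORD1B and SNORD1C, had means of 109 ± 1.66 TPM and 106 ± 2.46 TPM and did not pass (adjusted p = 0.491). SNHG26 (0.08), SNHG30 (-0.17) and SNHG14 (0.09), with the log2 change in brackets, are low in these cells and had overlapping groups.

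Hosts of box H/ACA snoRNAs held the largest fall among those with little spread. SNHG3 (ENSG00000242125; chromosome 1, 28505980 to 28510892) carries SNORA73A and SNORA73B, the U17 snoRNAs known for their part in processing of the ribosomal RNA precursor. It was at 67.2, 60.8 and 67.2 TPM in the controls and 38.5, 40.5 and 39.0 TPM after irradiation. The lowest control value exceeded the highest irradiated value by far more than the spread within either group. The mean went from 65.1 ± 3.68 to 39.3 ± 1.08 TPM, a log2 change of -0.71 ± 0.06 SE (adjusted p = 0.00259). SNHG3 passed in all 16 alternatives (adjusted p up to 0.0297), the only host of the 8 called to do so.

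SNHG3 overlaps RCC1, the gene of the nucleotide exchange factor of the GTPase Ran, on the same strand, so reads of the 2 genes may have been divided between them. RCC1 was at 74.8, 74.2 and 73.8 TPM in the controls and 58.2, 57.3 and 58.4 TPM after irradiation. It fell as well, with a log2 change of -0.35 ± 0.04 SE (adjusted p = 0.00640), and its part in the SNHG3 value was not tested. SNHG12, which lies 67645 bases further along chromosome 1 on the other strand and encodes snoRNAs of both classes, was at 40.8, 41.4 and 43.9 TPM against 37.9, 34.9 and 43.7 TPM. It did not pass (log2 change -0.12 ± 0.09 SE, adjusted p = 0.420).

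SNHG17 and SNHG11, neighbours on chromosome 20 that share the SNORA71 family shown above, changed in opposite directions. SNHG17 (ENSG00000196756; 38420588 to 38435353, minus strand) was at 44.3, 47.3 and 48.3 TPM in the controls and 36.3, 32.9 and 36.4 TPM after irradiation. SNHG11 (ENSG00000174365; 38446578 to 38450921, plus strand) was at 10.8, 9.10 and 8.55 TPM in the controls and 13.9, 13.9 and 13.5 TPM after irradiation. Neither gene's groups overlapped. SNHG17 fell with a log2 change of -0.40 ± 0.06 SE (adjusted p = 0.0140), and SNHG11 rose with a log2 change of 0.50 ± 0.10 SE (adjusted p = 0.0251). For SNHG17 the adjusted p was 0.0664 with control replicate 2 left out. For SNHG11 it was between 0.0679 and 0.0977 with control replicate 2 or 3 or irradiated replicate 1 or 3 left out. The log2 change of SNHG11 stayed between 0.43 and 0.59. Over all 16 alternatives SNHG17 lost its call in 2 and SNHG11 in 6.

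**Figure D3:**
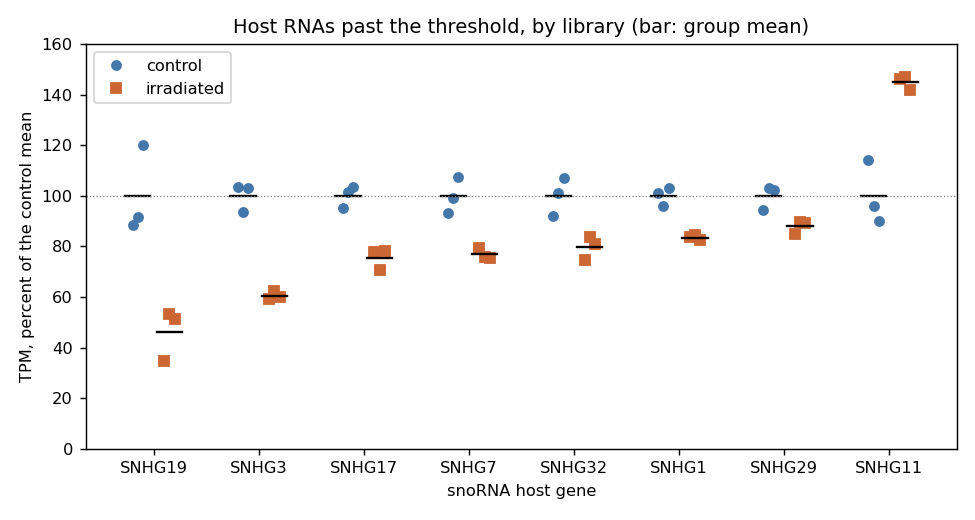
TPM in each library as a percentage of the gene's control mean (y axis, from 0) for the 8 host RNAs past the threshold (x axis); circles are control libraries, squares irradiated libraries and bars group means. The mean of SNHG19 fell by 53.7% and that of SNHG3 by 39.6%, and the mean of SNHG11 rose by 45.0%.

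SNHG7 (ENSG00000233016; chromosome 9, 136721366 to 136728184), which carries SNORA17A and SNORA17B, was at 43.9, 46.7 and 50.6 TPM in the controls and 37.3, 35.8 and 35.5 TPM after irradiation. The groups were separate, and the log2 change was -0.37 ± 0.06 SE (adjusted p = 0.0184). Leaving out control replicate 2 (adjusted p = 0.0723) or irradiated replicate 3 (0.0608) ended the call, which was lost in 4 of 16 alternatives in all. DIPK1B, which overlaps SNHG7 on the opposite strand, was at 6.60 ± 0.915 and 8.47 ± 0.806 TPM and did not pass (adjusted p = 0.141). Whether counting used strand is not stated.

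SNHG15, host of SNORA9 and known as a short-lived RNA, was at 64.7, 61.5 and 70.3 TPM in the controls and 52.9, 59.0 and 58.1 TPM after irradiation. Its groups did not overlap, yet it missed the threshold (log2 change -0.21 ± 0.07 SE, adjusted p = 0.0986). SNHG8, host of SNORA24, was at 185, 180 and 203 TPM against 155, 182 and 184 TPM, where only irradiated replicate 1 lay clearly lower (adjusted p = 0.329). SNHG9 carries SNORA78, and its longest annotated transcript is a single exon of 471 bases. It was at 23.1, 40.5 and 22.8 TPM in the controls and 28.4, 43.3 and 33.2 TPM after irradiation. Replicate 2 was the highest in both groups, and the spread was too wide for a call (log2 change 0.30 ± 0.24 SE, adjusted p = 0.450). RPS2, which starts head to head with SNHG9, fell (log2 change -0.24 ± 0.04 SE, adjusted p = 0.0178). SNHG4, which carries SNORA74A, was at 14.4 ± 3.89 and 14.5 ± 2.20 TPM (adjusted p = 0.941), and 2 overlapping genes moved apart. MATR3, on the same strand, fell (log2 change -0.43 ± 0.06 SE, adjusted p = 0.0103) and SIL1, on the opposite strand, rose (log2 change 0.38 ± 0.07 SE, adjusted p = 0.0221); their part in the SNHG4 value was not tested. SNHG25, a host of both classes with a transcript of 278 bases, was at 17.8, 16.6 and 15.4 TPM against 11.1, 15.9 and 9.07 TPM (log2 change -0.47 ± 0.18 SE, adjusted p = 0.143), and it passed without irradiated replicate 2 (adjusted p = 0.0264).

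The 4 hosts of scaRNAs, which guide modification of spliceosomal RNAs, were all low and none passed (limma; 1 of 4 at an unadjusted p under 0.05). SNHG10, host of SCARNA13, was at 7.94, 6.84 and 8.70 TPM in the controls and 4.56, 6.52 and 5.58 TPM after irradiation. Its groups were separate (log2 change -0.44 ± 0.14 SE, adjusted p = 0.0962). SNHG21 (-0.28), SNHG20 (-0.27) and SNHG22 (0.60), with the log2 change in brackets, had overlapping groups. SNHG22 was at 6.05 TPM in irradiated replicate 1 and between 1.23 and 3.15 TPM in the other 5 libraries.

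By class of encoded RNA, 4 of 11 tested box C/D hosts fell (median log2 change -0.05), and 3 of 8 box H/ACA hosts fell and 1 rose (median -0.17). GAS5, whose change is the box C/D median, has no encoded snoRNA annotated inside it here and was classed from a separate list. The 2 hosts that encode both (SNHG12 and SNHG25) and the 4 scaRNA hosts gave no call. Of the 9 tested hosts with the pyrimidine run shown above 4 fell, as did 3 of the 12 tested hosts whose RefSeq start region lacked it. Of 6 further motifs searched on both strands, from 250 bases before to 50 after the start, none marked all the lower hosts. TATAAA was in 3 of the 7 and in SNHG11 (11.5% of all regions hold it), GGGCGG in 3 of the 7 (45.0%), CCAAT in 2 (34.6%) and CACGTG in 1 (7.26%). TGACGTCA (1.85%) and CCGGAAG (10.3%) were in none of the 7. No match says only that these letters are not in this window.

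The untested hosts were SNHG28, SNHG27, SNHG31 and SNHG18. SNHG28 was at 0.74, 0.75 and 0.77 TPM in the controls and 0.91, 0.82 and 1.07 TPM after irradiation, below the filter but without overlap. SNHG27 and SNHG31 stayed under 1 TPM in all 6 libraries and SNHG18 was listed at 0 in each.

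The small RNAs themselves were mostly outside what this table measures. GENCODE 29 places 139 snoRNA or scaRNA rows of the table inside 27 of the hosts on their strand, 84 of them in SNHG14, and all 84 were listed at 0 in all 6 libraries. Of the other 55, 41 were listed at 0 in all 6, 11 were above 0 in some libraries and 3 in all. Of the 23 box C/D rows outside SNHG14, 1 was above 0 in any library, a SNORD22 row of SNHG1, at 49.8 TPM in control replicate 2 and 18.0 TPM in irradiated replicate 3. A value of 0 for such short RNAs can be a failed estimate, and SNORD60 and SNORD48, printed above, were among those at 0.

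Of the encoded RNAs 5 passed the filter, and limma called 0 of 5 (0 of 5 also at an unadjusted p under 0.05). SNORA73B, in SNHG3, was at 3.95, 10.9 and 16.9 TPM in the controls and 20.6, 3.52 and 13.4 TPM after irradiation, whereas all 3 irradiated SNHG3 values lay below the controls. SCARNA13, in SNHG10, was at 9.98, 9.30 and 9.33 TPM against 4.99, 11.3 and 16.4 TPM. SCARNA16, in SNHG20, was at 50.6, 38.3 and 73.0 TPM against 6.40, 42.5 and 64.4 TPM. The groups overlapped in each of these 3 small RNAs. SNORA73A (adjusted p = 0.648) and SNORA71B of SNHG17 (adjusted p = 0.890) were listed at 0 in 2 of 6 libraries each.

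The direction of the host RNAs can be set beside other genes measured in the same fit. Other long non-coding RNA genes had a median log2 change of 0.14 over 1368 tested, with 88 calls (6.43%), 13 lower (0.95%) and 75 higher (5.48%). Their irradiated values lay wholly below the controls in 4.75% and wholly above in 22.4%. Protein-coding genes with an annotated snoRNA or scaRNA on their strand had a median of -0.10 over 224 tested, with 29 lower calls (12.9%, against 4.53% of all tested protein-coding genes) and 5 higher (2.23% against 6.96%). The 10 other long non-coding RNA genes with such an annotation had a median of 0.05, against 0.03 over all tested genes. Of their estimates 7 were above 0, and limma gave 1 higher call and 0 lower. At an unadjusted p under 0.05, 2 of 10 were higher and 2 lower. The sets were not matched to the SNHG genes by level. Because log2(TPM + 1) understates changes of low genes, their medians and shares of calls are not compared on equal terms. All are descriptions of these libraries, and a gene entered these host sets by spanning such an RNA. Genes that overlap an SNHG gene can thus be among them through the same small RNA. A hand-made list of non-coding hosts without an SNHG number gave 0 calls of 3 (limma; 2 of 3 at an unadjusted p under 0.05, both lower). DANCR, the former SNHG13, was at 128, 117 and 116 TPM in the controls and 105, 105 and 89.5 TPM after irradiation (adjusted p = 0.0629). It passed with a filter of 5 TPM (adjusted p = 0.0488) and after correction for GC content and length (0.0340), and in none of the other 14 alternatives (adjusted p up to 0.183). ZFAS1, host of SNORD12 family members, was at 231, 243 and 197 TPM against 163, 197 and 191 TPM (adjusted p = 0.111).

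**Figure D4:**
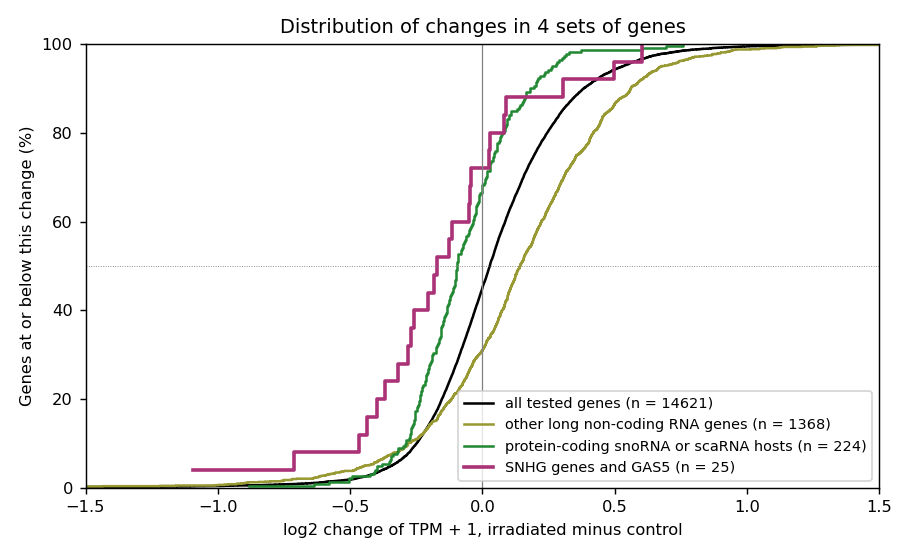
Cumulative percentage of genes (y axis) at or below each log2 change, irradiated minus control (x axis), for the 25 tested SNHG genes and GAS5, 224 protein-coding snoRNA or scaRNA hosts, 1368 other long non-coding RNA genes and all 14621 tested genes. The curve of the host RNAs crosses 50% at -0.17 (-0.0853 without control replicate 3), that of all genes at 0.03 and that of other long non-coding RNAs at 0.14.

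Genes that work with the encoded snoRNAs were read from lists put together by function, beside 4.07% lower calls, 6.53% higher calls and a median log2 change of 0.03 over all tested genes. Of the 4 box C/D core proteins, 3 fell: the methyltransferase FBL (log2 change -0.27 ± 0.04 SE, adjusted p = 0.0146), NOP56 (-0.25 ± 0.04 SE, adjusted p = 0.00921) and NOP58 (-0.32 ± 0.04 SE, adjusted p = 0.00718). SNU13, the fourth, was at 291 ± 2.21 and 303 ± 11.9 TPM (adjusted p = 0.394). Of the 4 box H/ACA core proteins the pseudouridine synthase DKC1 fell (-0.24 ± 0.06 SE, adjusted p = 0.0416), and NHP2, NOP10 and GAR1 did not pass. Of 13 snoRNP assembly and Cajal body genes NOLC1 fell (-0.36), with a list median of -0.20.

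Among 12 nonsense-mediated decay factors UPF3B (-0.42) and SMG9 (-0.41) fell, with a list median of -0.17, again beside 4.07% lower calls over all tested genes. Among 9 exon junction and decapping genes RBM8A (-0.26) and MAGOH (-0.19) fell, with a median of -0.19. UPF1, the central decay helicase, was at 49.0 ± 3.65 and 42.8 ± 3.39 TPM and did not pass (adjusted p = 0.168). Of 10 genes of mTORC1 and translation control EIF4EBP1 fell (-0.22, adjusted p = 0.0257). Whether these counts of 1 or 2 calls a list differ from the share over all genes was not tested. Of 38 listed protein-coding snoRNA hosts 8 fell and 1 (RPS13, 0.22) rose, beside 4.07% and 6.53% of all tested genes. The list median was -0.08, and the largest falls among the called genes were in NCL (-0.40), RCC1 (-0.35), HSPA8 (-0.29) and NOP56 (-0.25). RCC1 overlaps SNHG3 on the same strand, and NOP56 and DKC1 were also counted as core proteins above, so these sets are not independent. Values in brackets are log2 changes, and each gene said to have fallen or risen passed the adjusted threshold in the limma fit. With 1 library left out at a time, NOP56, NOP58, RBM8A, HSPA8 and RCC1 passed in all 6 fits; FBL, NOLC1 and NCL lost the call in 2, DKC1, UPF3B, SMG9 and EIF4EBP1 in 5 and MAGOH in 6. Of the neighbours, MATR3 lost it in 1 and RPS2 and SIL1 in 3.

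**Figure D5:**
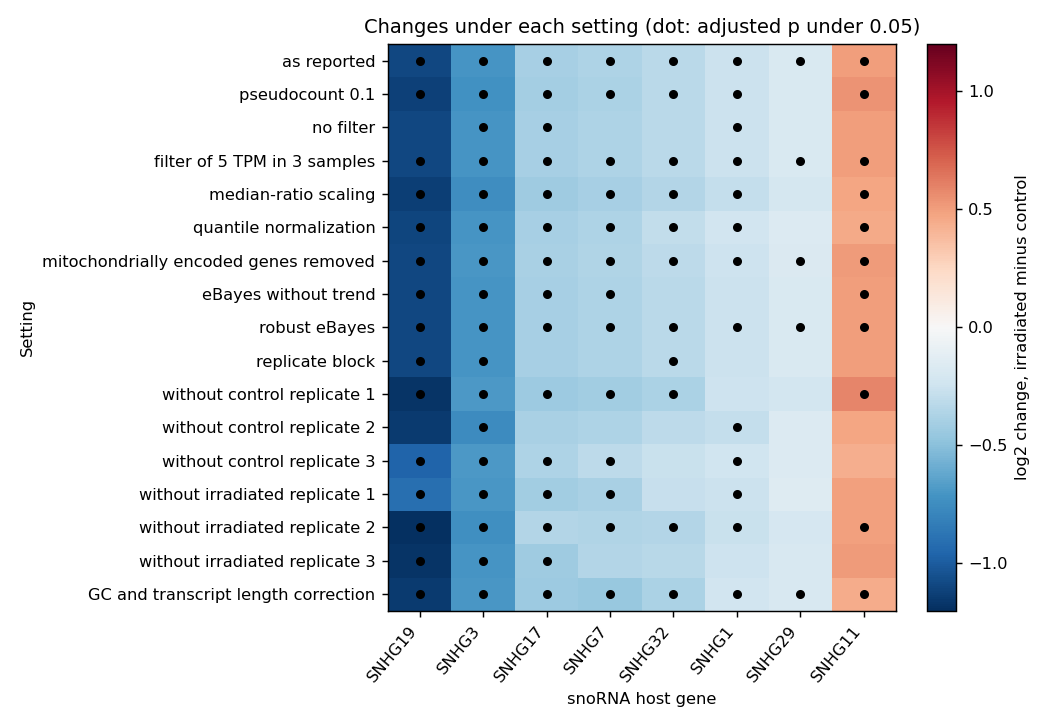
Log2 change (colour), irradiated minus control, of the 8 host RNAs past the threshold (x axis) as reported and under each of 16 other settings (y axis); a dot marks an adjusted p under 0.05. Every host keeps its colour in every row, SNHG3 has a dot in all of them, and SNHG29 has dots in 5 of the 17.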

How the data were processed

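The authors deposited 1 table of TPM (transcripts for each 1000000, scaled by length) per gene and library; per the submitters' processing notes HISAT2, StringTie, RSEM and hg38 were used, without versions, roles or order. Libraries were made with a TruSeq RNA kit, per the labels' protocols. TPM keeps no depth, so no counting interval is given. Columns and groups were taken from the sample titles. Of 61280 rows, 14621 had 1 TPM or more in 3 or more libraries; log2(TPM + 1), which understates changes of low genes, was fitted with limma 3.58.1 in R 4.3.3 (eBayes with trend; degrees of freedom 4 residual, 3.39 prior). Tests were two-sided, with Benjamini-Hochberg adjustment and a threshold of 0.05. At most 0.479% of tested rows were identical between any pair of libraries of the same group.

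The members, lists and tests were chosen with earlier results of these data known. Named are all members, the 2 most abundant encoded RNAs tested and, per list, up to 4 called genes with the largest changes or else the 2 most abundant; other genes with values, neighbours included, were added after their values were seen. Gene places are from GENCODE 29 (GRCh38, 1-based). In a simulated table of 14621 genes with 200 changed, recovery was 18% at a true log2 change of 0.3, 40% at 0.5 and 84% at 1. Of its 122 calls 4 were false. The real fit called 1550 genes, and the adjusted threshold depends on that share, so these recoveries do not carry over to the hosts. Alternatives were a pseudocount of 0.1; no filter or a 5 TPM filter; median-ratio and quantile scaling; mitochondrially encoded genes left out; eBayes without trend, and robust; a replicate block; 1 library fewer; and, chosen after seeing the data, adjustment for GC and transcript length (97.4% of tested genes had both).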

Additional observations from a re-analysis of the deposited data

How the results depend on the processing

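All 8 called hosts kept their direction in all 16 alternatives. The 1550 calls over all genes became 497 with no filter and 993 with eBayes without trend, and 306 to 1390 with 1 library left out. The 7 lower host calls became 3 with no filter and 4 with eBayes without trend, and 2 to 7 with 1 library left out. The 1 higher host call became 0 with no filter, and 0 to 1 with 1 library left out. Fits with 1 library fewer have less power, so a lost call need not come from that library. The hosts' median log2 change ran from -0.20 to -0.0853 with 1 library left out, smallest without control replicate 3, and the change of their summed TPM from -308 to -195.

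Both groups use replicate numbers 1 to 3, but libraries with the same number did not deviate together (correlations of 0.031, -0.0554 and -0.025), and 2 of 6 libraries correlated best with their own number. The replicate block left 362 calls over all genes, 3 lower host calls (SNHG19, SNHG3 and SNHG32) and 0 higher.

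Of the 17 tested hosts that did not pass, 12 kept their sign in the alternatives run, and SNHG4, SNHG5, SNHG6, SNHG14 and GAS5 did not; neither did 4 encoded RNAs. Median-ratio scaling gave -0.0080 for SNHG6 and -0.0012 for SNHG4; quantile normalization gave 0.0020 for GAS5 and -0.0469 for SNHG14. With 1 library left out, SNHG5 ran from -0.0708 to 0.0033, SNHG6 from -0.0213 to 0.0480, SNHG4 from -0.13 to 0.22 and SNHG14 from -0.0472 to 0.35. SNORA73B ran from -0.38 to 0.80, SNORA71B from -0.53 to 1.05, SCARNA13 from -0.29 to 0.48 and SCARNA16 from -1.57 to 0.0051. The cause was not tested.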

Other observations

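Among 14 other well-known long non-coding RNAs, 12 were tested, and their median log2 change was 0.20, with 1 call. NEAT1, the scaffold of paraspeckles, rose from 41.5, 44.2 and 40.8 TPM in the controls to 72.2, 68.8 and 74.9 TPM after irradiation (log2 change 0.76 ± 0.06 SE, adjusted p = 0.00201 in the limma fit, passing in each of the fits that left out 1 library). The 12 gave 1 higher call and 0 lower calls (limma; 4 higher and 0 lower at an unadjusted p under 0.05). MALAT1, a nuclear-speckle RNA chosen here after its values were seen, was at 145, 133 and 118 TPM against 211, 136 and 189 TPM and did not pass (adjusted p = 0.139).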
